A study of Mus musculus with 4 samples.

Results

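Of the 50231 accessible regions found by joining the peaks of 4 ATAC-seq libraries of mouse embryonic stem cells, 550 (1.10%) were called in both DR+/+ libraries, in neither DR-/- library, and within 10 kb of a region called in all 4. These are DR+/+-only regions that flank common regions. They were chosen by a rule on presence: peaks overlapping by 1 bp or more were joined into union regions, a common region has a peak in all 4 lists, and only chromosomes 1 to 19 were used. The distance is measured from edge to edge to the nearest common region, called the partner here. The 550 regions were 12.9% of the 4256 DR+/+-only regions on these chromosomes, and the other 3706 lay farther away. DR+/+-only regions made up 8.92% of the 47709 union regions on chromosomes 1 to 19. The count rests on each list, since it was 1252 without DR+/+ replicate 1, 2853 without DR+/+ replicate 2, 982 without DR-/- replicate 1 and 1131 without DR-/- replicate 2.

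The cells were J1, a 129SV line kept without feeders on gelatin in medium with serum and leukemia inhibitory factor. The DR+/+ population was positive for MERVL and Zscan4c and the DR-/- population negative for both, with 2 libraries each. Separate cultures are not named in the labels, so p-values measure only the spread between these libraries, which may be technical. Where values of all 4 libraries are given without names, their order is DR+/+ replicates 1 and 2, then DR-/- replicates 1 and 2. Values of the DR+/+ libraries alone are likewise in the order of the replicates. Each library is represented by its own deposited list of peaks on mm9, and the lists held 40933, 26866, 21630 and 24432 peaks. The lowest background pileup per list, which moves with depth, was 1.66, 1.62, 1.31 and 1.47 reads. Genes, repeats and sequence at the regions were not analysed here, because no mm9 annotation or genome was used. Peak lists alone allow no check of the populations against the levels of MERVL or Zscan4c.

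MERVL is an endogenous retrovirus, and its long terminal repeats act as promoters in the early mouse embryo. Zscan4c belongs to a gene family expressed when the zygotic genome becomes active, and a small fraction of embryonic stem cells in culture passes through a state in which both are on. In ATAC-seq the transposase Tn5 cuts DNA that is free of nucleosomes, so a peak marks an accessible promoter, enhancer or other regulatory element. Accessible elements often occur in groups, where a strong element has weaker ones beside it that can open or close with the state of the cell.

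DR+/+-only regions lay near common regions less often than regions of any other presence pattern. Grouped by which of the 4 lists held a peak, the union regions on chromosomes 1 to 19 fell into 15 patterns. The share within 10 kb of a common region was 12.9% for DR+/+-only regions (550 of 4256, 95% Wilson interval 11.95 to 13.96%). For the other 14 patterns it lay between 14.6% and 19.9%. For DR-/--only regions it was 18.9% (126 of 668, 16.1 to 22.0%), and 17.1% of the common regions had another common region as near. Regions called in DR+/+ replicate 1 alone (14.6%) and in DR+/+ replicate 2 alone (15.3%) had the next lowest shares. The intervals cover counting error only, and the pattern and the distance are what the rule used, so these shares are a description.

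**Figure D1:**
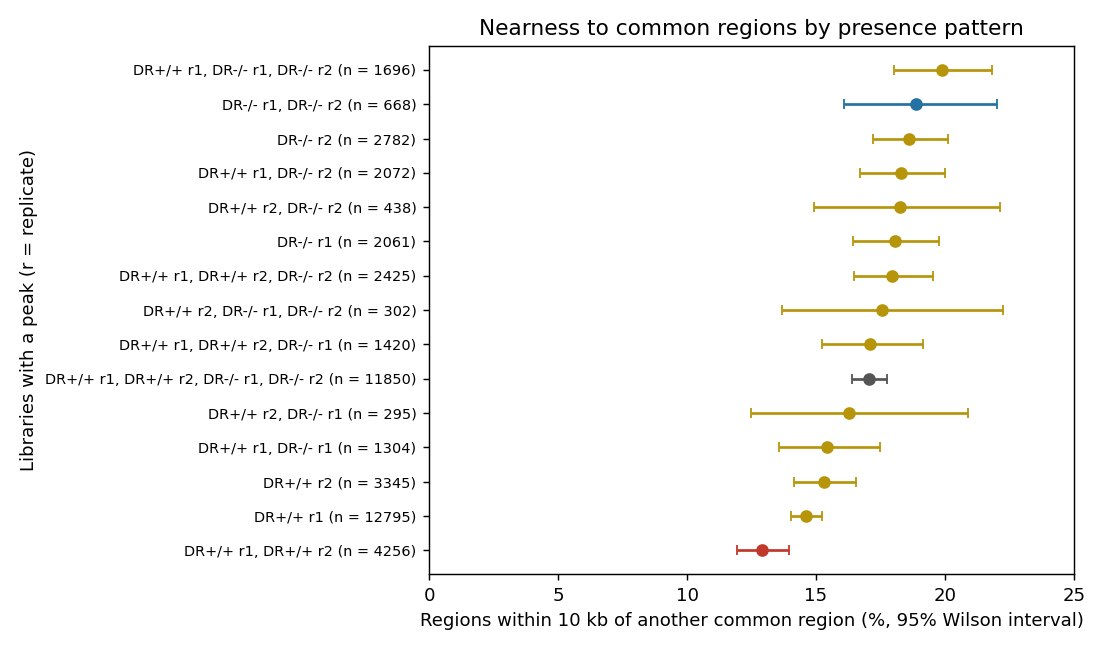
Share of regions within 10 kb of another common region (x axis, %, with 95% Wilson intervals) for each combination of libraries with a peak (y axis). The DR+/+-only regions (red) are lowest at 12.9%, and the DR-/--only regions (blue) are at 18.9%.

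Seen from the other side, DR+/+-only regions were 9.61% of the 5725 regions that flanked a common region without being common, against 11.9% of all 35859 regions that were not common. DR-/--only regions were 2.2% of the flanking regions and 1.86% of all that were not common. Library by library, the share of the regions that were not common and lay within 10 kb was 15.5%, 15.4%, 17.8% and 18.6%. Both DR+/+ libraries were below both DR-/- libraries. Both DR+/+ shares count the same DR+/+-only regions, so they are independent neither of the rule nor of each other. The DR+/+-only share was also the lowest of the 15 patterns at distance limits of 5 kb and 20 kb, with stronger peaks alone, with lists of equal length, with presence defined by 50% coverage and with peaks merged over gaps of 500 bp. With lists of equal length it was 9.12%, against 16.1% for DR-/--only regions, with 1667 and 1461 regions of each kind.

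The flanking regions were densest under 500 bp from the partner, called close here, and sparsest per kb between 2 and 5 kb. The limit of 10 kb comes from the rule, and 944 DR+/+-only regions lay within 20 kb. The distance to the partner had a median of 3179 bp and ranged from 0 to 9992 bp. Of the 550, 168 (30.5%) lay under 500 bp from the partner, 40 between 500 bp and 1 kb, 36 between 1 and 2 kb, 78 between 2 and 5 kb and 228 between 5 and 10 kb. Per kb of distance this was 336 regions in the nearest 500 bp, 26 between 2 and 5 kb and 45.6 between 5 and 10 kb. Common regions spaced themselves from each other in much the same way, with 29.4% under 500 bp, 17.6% between 2 and 5 kb and 39.7% between 5 and 10 kb. Regions of other patterns had 32.8%, 14.7% and 38.1% in these bins. The DR-/--only regions had 22.2%, 21.4% and 32.5%, but number only 126.

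**Figure D2:**
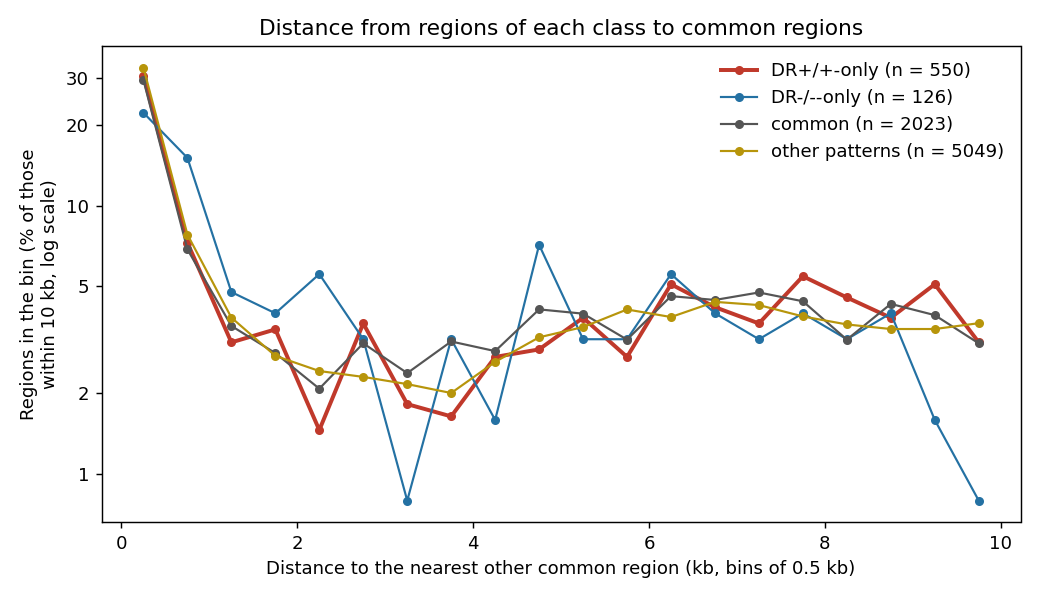
Distance to the nearest other common region (x axis, kb, bins of 0.5 kb) for 4 classes of regions, as a percentage of the class's regions within 10 kb (y axis, log scale). The DR+/+-only curve starts at 30.5% in the nearest bin, dips between 2 and 5 kb and is higher again beyond 5 kb, as do the curves of common and other regions.

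The local background also varied with the distance. The background pileup, the reads that the peak caller took as the local level around a peak, had medians of 3.20 and 2.92 in the DR+/+ libraries for regions under 500 bp. It was 3.34 and 3.04 between 500 bp and 1 kb, and highest between 1 and 2 kb, at 3.515 and 3.22. Between 2 and 5 kb it was 3.23 and 2.93, much as under 500 bp, and between 5 and 10 kb 2.37 and 2.18. DR+/+-only regions beyond 10 kb had 2.19 and 2.09. A higher background asks for more reads before a peak is called. Its part in the sparse 2 to 5 kb bin was not tested.

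The sides of the partner were about equally filled, with 277 at lower and 273 at higher coordinates. The 550 regions belonged to 531 partners, 4.48% of the 11850 common regions on chromosomes 1 to 19. Of these partners 513 had 1 such region, 17 had 2 and 1 had 3. Members on both sides were seen at 8 partners. A further union region lay between region and partner in 96 cases. Although no DR-/- peak overlapped the members, 186 had a DR-/- peak within 500 bp, and 82 (14.9%) had one nearer than the partner, belonging to a region that was not common.

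The flanking regions were spread over all 19 chromosomes. Chromosome 3 had the most (43), followed by chromosome 5 (42) and chromosome 2 (38), while chromosomes 18 (10), 19 (12) and 12 (15) had the fewest. As a share of the union regions of a chromosome they ranged from 0.659% on chromosome 18 and 0.691% on chromosome 12 to 1.45% on chromosome 15 and 1.48% on chromosome 17. As a share of the chromosome's DR+/+-only regions they ranged from 8.26% on chromosome 18 to 16.6% on chromosome 15. No test was made between chromosomes.

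The members were modest peaks. Their summits held a median of 16 reads in DR+/+ replicate 1 (interquartile range 14 to 20) and 15 in DR+/+ replicate 2 (13 to 17). Common regions held 23 (19 to 29) and 19 (16 to 24) reads in these libraries. The authors' fold enrichment over local background had a median of 4.39 and 4.26 for the members, 6.28 and 5.52 for common regions, and 4.85 and 4.58 for DR+/+-only regions beyond 10 kb. Members therefore held more summit reads than the distant DR+/+-only regions (15 and 13 reads in the median) but were less enriched over a higher background. Their median rank by q-value was at the 41.5th percentile of the list of replicate 1 and the 30.2nd of that of replicate 2, against 45.6 and 33.8 for the distant ones. These values come from the lists that chose the members and are given as a description.

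**Figure D3:**
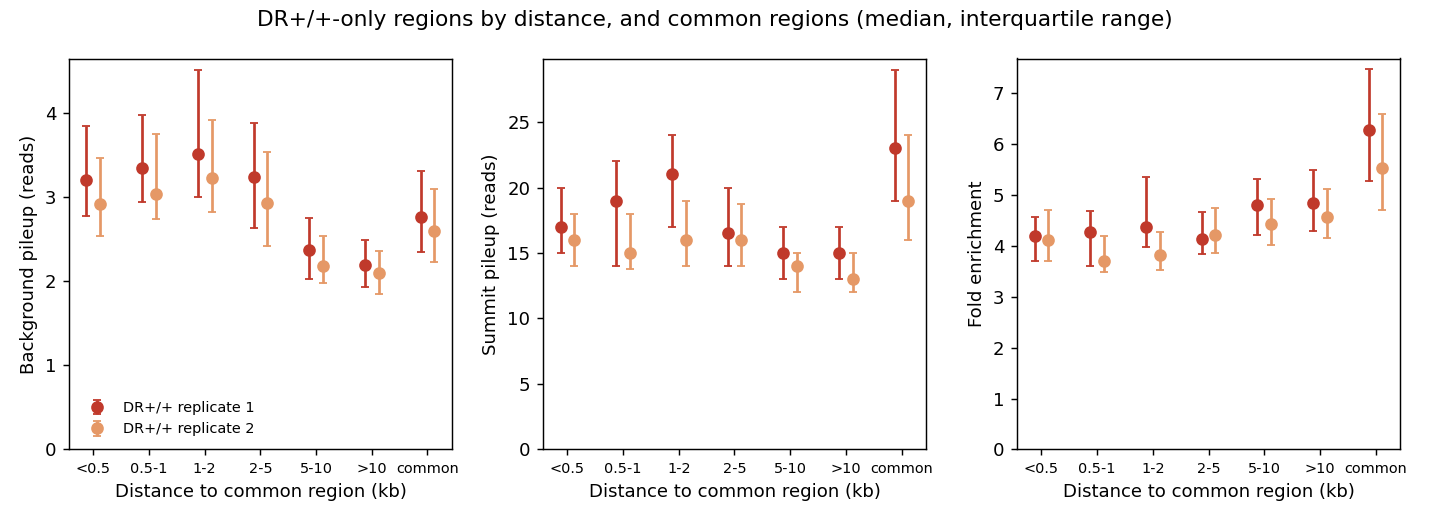
Background pileup, summit pileup (both in reads) and fold enrichment (y axes) of DR+/+-only regions by distance to the nearest common region, and of common regions (x axis), in both DR+/+ libraries. Points are medians and bars interquartile ranges, and the background falls from 3.23 to 2.37 reads in replicate 1 between the 2 to 5 kb and the 5 to 10 kb bins.

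Only 8 members (1.45%) were in the strongest quartile of both DR+/+ lists, while 79 were in the weakest quartile of both. Among distant DR+/+-only regions 75 (2.02%) were in the strongest quartile of both, and among common regions 41.2%. The replicates ranked the members loosely: over the 550 regions the Spearman correlation of the percentile was 0.196, against 0.251 over the distant and 0.681 over the common regions. Restricting a set to weak peaks narrows its range, and all regions of a library share its depth. The summits had a median offset of 42 bp between replicates, with 308 members (56.0%) within 50 bp. The rule joins peaks that overlap, and these peaks are short, so it limits the offset in advance. The offset was 44 bp for distant DR+/+-only regions and 36 bp for common regions.

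The merged members measured 215 bp in the median (interquartile range 176 to 277 bp, extremes 115 and 836 bp), compared with 231 bp for distant DR+/+-only and 366 bp for common regions. Within the lists their peaks were 174 and 156 bp wide. The members under 500 bp from the partner had the widest peaks of the distance bins, at 189 and 174 bp. Those between 500 bp and 1 kb had 173 and 142 bp.

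Most members were lower than the common region beside them. In DR+/+ replicate 1, 450 of the 550 had fewer summit reads than the partner, 72 had more and 28 had the same number. In DR+/+ replicate 2 the numbers were 422, 98 and 30. The median ratio of member to partner was 0.732 and 0.773. In 34 cases (6.18%) the member exceeded its partner in both DR+/+ libraries. The rule asks for a peak in all 4 lists at a partner and for none in DR-/- at a member, which favours lower members. Common regions in general held medians of 23 and 19 reads, and DR+/+-only regions beyond 10 kb 15 and 13. These values therefore do not show an effect of lying beside a partner.

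With lists shortened by q-value to the length of the shortest, 152 members were left. The pileup at the members' positions in the DR-/- libraries is not in the peak lists, so a weaker signal there cannot be told from none.

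The strongest member by mean percentile (87.2) was a region of 269 bp at chr13:55203403-55203671. Its summit held 28 reads in DR+/+ replicate 1 and 24 in DR+/+ replicate 2, at 6.29-fold and 6.27-fold enrichment, and the 2 summits were 9 bp apart. It lay 1629 bp from a common region at chr13:55201518-55201773 whose summits held only 18, 17, 16 and 13 reads in the 4 libraries. Here the flanking region exceeded the partner in both DR+/+ libraries. The partner itself differed by 0.08 on the log2 scale between the populations, after dividing each library by its mean over common regions.

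The second in rank (86.1), at chr9:3037129-3037293, was enriched only 2.03-fold and 2.13-fold, over a background of 66.3 and 70.9 reads. A high rank by q-value thus need not mean a high enrichment. Chromosome 13 also held the third in rank, a region of 456 bp at chr13:37258950-37259405 only 76 bp from its partner. It had 24 and 26 reads (5.76-fold and 6.54-fold), and the partner had 22, 19, 15 and 16 reads. Chromosome 6 held a pair of strong members. The one at chr6:29162237-29162425 had 24 and 25 reads (5.62-fold and 6.73-fold) at 3797 bp from a partner with 20, 19, 18 and 20 reads. The other, at chr6:108020925-108021378, had 25 and 21 reads at 5350 bp from a partner with 32, 26, 24 and 27 reads. In raw reads both DR+/+ values were above both DR-/- values at the chromosome 13 partners, but not at those on chromosome 6. Raw reads also follow the level of each library, which was highest in DR+/+ replicate 1. After division by the library means the chromosome 13 partners differed by only 0.08 and 0.2 on the log2 scale. Those on chromosome 6 differed by -0.16 and -0.02.

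A region on chromosome 17 at chr17:51843407-51843670 had the highest enrichment of replicate 1 among the 12 top-ranked members, 7.92-fold with 26 reads, but 5.28-fold with 16 reads in replicate 2. Its partner, 8478 bp away, had 11, 13, 12 and 18 reads and so was relatively lower in DR+/+ (-0.49 on the same scale). The highest enrichment of replicate 2, 7.63-fold with 19 reads, belonged to chr5:107360955-107361208, with 6.06-fold and 16 reads in replicate 1. Other top-ranked members lay on chromosome 2 (chr2:4577868-4578149, 21 and 17 reads), chromosome 19 (chr19:12860561-12860797, 20 and 18 reads) and chromosome 10 (chr10:15345564-15345991, 25 and 22 reads).

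Close members with partners that were higher in DR+/+ were seen on chromosomes 7 and 11. At chr7:33766943-33767092 a member of 150 bp had 19 and 15 reads, 60 bp from a partner with 21 and 18 reads in DR+/+ and 11 and 12 in DR-/-. At chr11:29447827-29448002 the member had 25 and 26 reads, 105 bp from a partner with 43 and 27 reads in DR+/+ and 19 and 23 in DR-/-. After division by the library means the partners differed by 0.56 and 0.51 on the log2 scale.

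The members nearest to a partner touched it. The region at chr1:4550704-4551147 began at the base after its partner ended, with 15 reads in each DR+/+ library, and so did that at chr3:120528988-120529456, with 21 and 19 reads. Those at chr4:64529306-64529628 and chr7:16984888-16985171 were separated by 1 bp. At the limit of 10 kb the last members lay 9992, 9986, 9974 and 9972 bp away, with 17 and 11, 29 and 13, 21 and 16, and 13 and 11 reads. The first DR+/+-only regions outside lay at 10023, 10029, 10032 and 10075 bp, with 18 and 13, 26 and 22, 20 and 12, and 22 and 19 reads. Regions on both sides of the limit thus covered a similar range of reads.

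The widest member, 836 bp at chr16:70947447-70948282, was wider than its partner of 344 bp, which lay 60 bp away. It had 19 and 20 reads, and the partner 19, 16, 10 and 13. The next were 803 bp at chr10:110284134-110284936 (15 and 13 reads) and 711 bp at chr5:71947863-71948573 (17 and 14 reads, 140 bp from the partner).

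The rule used no read count of the partners, but it used peak calls beside them. It also used their edges and a peak in every list. Their widths are therefore not independent of it and are given as a description, with no test. As a whole the 531 partners were close to the other 11319 common regions in every library. The log2 ratio of their mean summit pileup to that of the other common regions was -0.042, -0.025, -0.045 and -0.042. The difference of DR+/+ minus DR-/- was 0.0099 (means -0.034 ± 0.012 and -0.044 ± 0.0017, SD, n = 2 each). An exact two-sided permutation test of the libraries gave p = 0.333, the smallest that 2 against 2 libraries allow, so no difference between the populations can pass 0.05 in it.

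The sign of that small difference was not stable. It was -0.044 with the fold enrichment in place of the pileup, and -0.0268 with peaks merged over gaps of up to 500 bp, which removes the closest flanking regions. Partners had more background than other common regions, with log2 ratios of 0.21 and 0.19 in DR+/+ and 0.13 in both DR-/- libraries.

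The 167 partners of the 168 close members had relatively more summit reads in DR+/+, but also more background, and a lower fold enrichment. This split by distance was looked at after the values had been seen. Their log2 ratio of summit pileup was 0.032 and 0.072 in the DR+/+ libraries and -0.029 and -0.054 in the DR-/- libraries. The groups of libraries did not overlap, and the difference was 0.094 (exact permutation test, p = 0.333). These partners were picked by a nearby peak in both DR+/+ lists and neither DR-/- list. Reads around them are therefore not independent of the rule, and the test cannot support a difference. The difference in pileup fell to 0.053 where presence required 50% coverage of the region and was 0.18 with medians in place of means. The log2 ratio of background differed more, at 0.53 and 0.54 in DR+/+ and 0.40 and 0.37 in DR-/-. The log2 ratio of fold enrichment ran the other way, at -0.25 and -0.21 in DR+/+ and -0.20 in both DR-/- libraries (difference -0.028). The part of background in the pileup was not tested. Both DR+/+ libraries exceeded both DR-/- libraries at 50 of the 167 partners (29.9%), and both were lower at 26 (15.6%). Among other common regions these shares were 20.2% and 21.5%.

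Their peaks were also wider in DR+/+. The peaks of these 167 partners had median widths of 350 and 280 bp in DR+/+ and 239 and 233 bp in DR-/-. Other common regions had 309, 263, 227 and 246 bp. The log2 ratio of mean widths was 0.26 and 0.18 in DR+/+ and 0.0033 and -0.0040 in DR-/-, a difference of 0.22. It fell to 0.12 without DR+/+ replicate 2, to 0.14 with medians in place of means, and to 0.020 where presence required 50% coverage, when DR+/+ and DR-/- libraries overlapped.

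**Figure D4:**
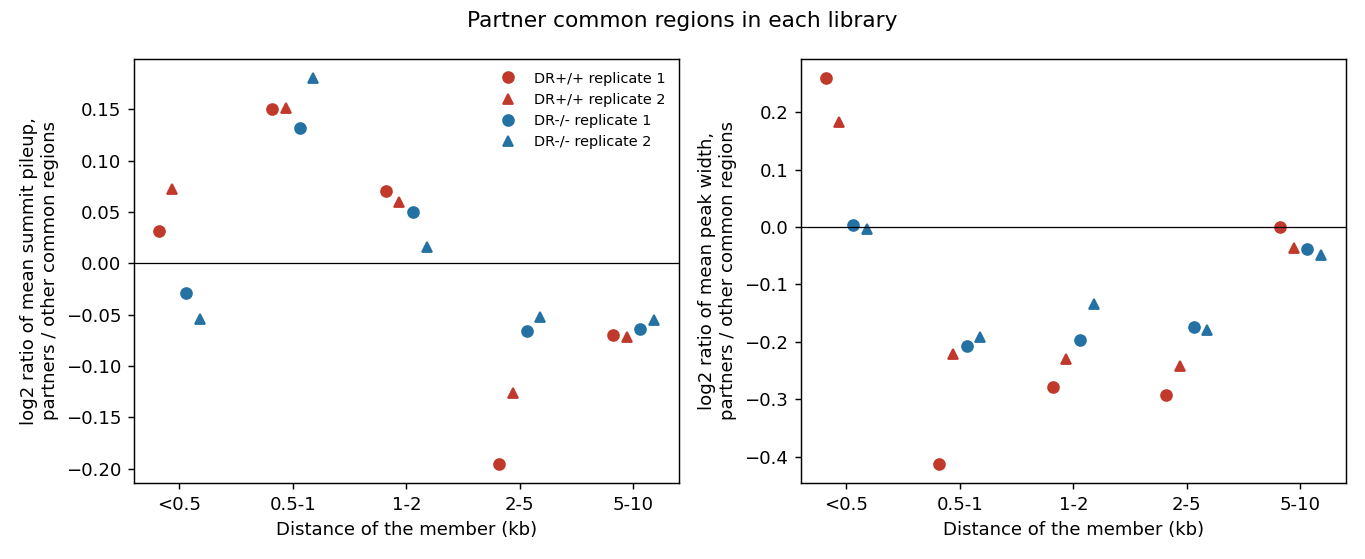
Log2 ratio of the mean summit pileup (left) and mean peak width (right) of partners to those of other common regions (y axes), by the distance of the DR+/+-only region (x axis, kb), with 1 point per library. Under 0.5 kb both DR+/+ libraries lie above both DR-/- libraries in both panels, and between 2 and 5 kb both lie below them.

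Partners of members farther than 500 bp varied with the distance. For the 364 of them together the log2 ratio of pileup was -0.077 and -0.072 in DR+/+ and -0.052 and -0.037 in DR-/-, a difference of -0.030. The lowest was that of the 77 partners between 2 and 5 kb, at -0.10. There both DR+/+ libraries were lower at 23 partners (29.9%) and higher at 6 (7.79%). The 36 partners at 1 to 2 kb had relatively more reads in both DR+/+ libraries (0.032). The widths of the 364 differed by -0.027, but those of the 223 at 5 to 10 kb by 0.025, with both DR+/+ libraries above both DR-/- libraries. In fold enrichment the 364 differed by -0.051, the same direction as for close partners. The difference between close and far partners was not tested.

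For comparison, common regions with other kinds of close neighbours were measured in the same way. With a region of DR+/+ replicate 1 alone under 500 bp (586 common regions) the difference of DR+/+ minus DR-/- was 0.047 in pileup and 0.063 in width. With one of DR+/+ replicate 2 alone (189) it was 0.030 and 0.047. With a region of DR-/- replicate 1 alone (123) it was -0.0128 and 0.0185, and with one of DR-/- replicate 2 alone (144) -0.0073 and 0.0059. With a DR-/--only region (28) it was -0.034 and -0.0080, and with another common region (572) 0.0031 and 0.030. The values for close DR+/+-only neighbours were the highest of these sets in both measures.

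The peaks of close partners reached about as far toward the member as away from it in every library. Measured from the mean summit over the 4 libraries, the partner's peak reached 172 bp toward the member and 183 bp away from it in DR+/+ replicate 1 (medians, 166 partners with 1 close member). The values for DR+/+ replicate 2 were 138 and 136 bp. They were 119 and 118 bp, and 124 and 119 bp, for the DR-/- libraries. The facing side was the longer at 80, 80, 83 and 84 of the 166 partners. In no library can a partner's peak overlap the member, or the regions would have been joined. These values therefore cannot decide whether the additional width in DR+/+ was directed toward the member.

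Summits of close members stood apart from those of the partners by 479 bp (interquartile range 370 to 604 bp) in DR+/+ replicate 1 and 496 bp (369 to 633 bp) in DR+/+ replicate 2. The shortest spacing was 191 and 210 bp, and 1 and 0 of the 168 were under 200 bp. The rule that peaks of separate regions must not overlap limits how small this spacing can be, as the shortest peaks of the lists were 108 and 115 bp. Of these close members 134 and 117 had fewer reads than the partner, which the rule favours, and 24 and 40 had more.

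The only partner with 3 members lay at chr10:57694529-57695402. Its summit held 69, 52, 33 and 40 reads, a difference of 0.52 on the log2 scale after division by the library means. In both DR+/+ libraries it was 1 peak across most of the region, whereas DR-/- replicate 1 had 2 short peaks in it and DR-/- replicate 2 had 3. The members at chr10:57694134-57694318, chr10:57695431-57695611 and chr10:57696024-57696152 had 38 and 38, 41 and 38, and 36 and 36 reads. Their enrichment was only 2.37-fold to 2.63-fold, over a background of 13.3 to 15.5 reads, several times that of a typical member.

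**Figure D5:**
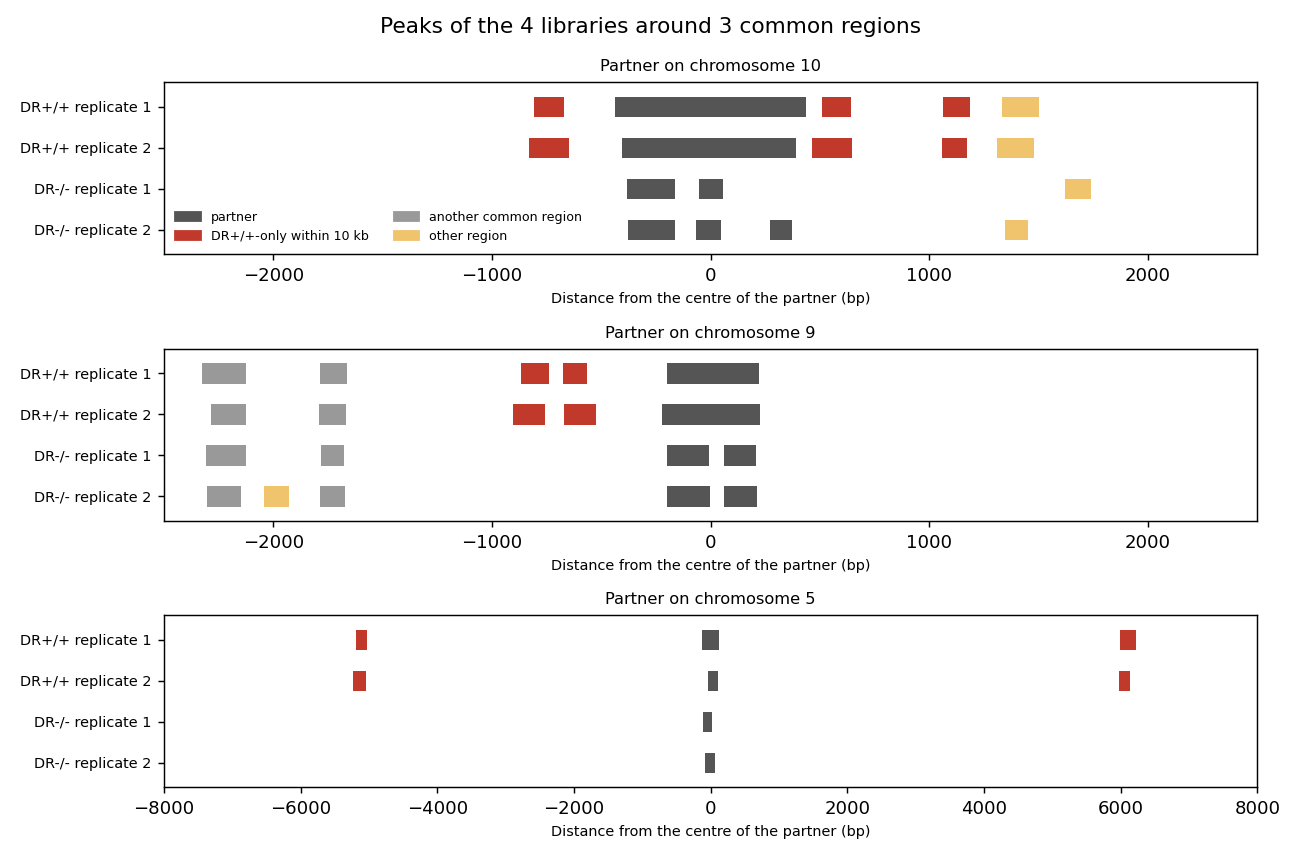
Peaks of the 4 libraries (rows) around the 3 partners on chromosomes 10, 9 and 5, as distance from the centre of the partner (x axis, bp). The bars show DR+/+-only regions (red) in both DR+/+ rows alone, and on chromosomes 10 and 9 the partner (dark grey) is 1 peak in DR+/+ and 2 or more in DR-/-.

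A partner at chr9:3037809-3038254 had members at chr9:3037129-3037293 and chr9:3037356-3037504 on the same side. Their summits held 136 and 152 reads and 117 and 119 reads, but on a background of 64.2 to 70.9 reads, so the enrichment was 1.72-fold to 2.13-fold. The partner's summit held 133, 148, 120 and 112 reads. The first peak of chromosome 9 in any list began at position 3000038, so these lie close to the first peaks of the chromosome. The treatment of reads that map to many places is not stated in the labels.

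At chr5:107354859-107355110 the members stood on both sides, 4911 bp below at chr5:107349751-107349947 (14 and 12 reads) and 5844 bp above at chr5:107360955-107361208 (16 and 19 reads). The partner itself was weak, with 16 and 14 reads in DR+/+ and 12 and 11 in DR-/-, so the member above it had as many reads or more. At chr10:15346096-15346695 (24, 23, 14 and 15 reads) the members lay 104 bp below and 8715 bp above, the second at chr10:15355411-15355812 with 16 and 12 reads. At chr11:84683927-84684394 (20, 12, 16 and 12 reads) they lay 221 bp below (16 and 15 reads) and 9223 bp above (17 and 15 reads). At chr3:60297582-60297881 (20, 19, 10 and 14 reads) both lay above, at 7141 and 7527 bp, with 15 and 19 and 15 and 13 reads.

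The partners that differed most between the populations did so in either direction. The largest excess in DR+/+ was at chr19:8324565-8324764, with 33 and 25 reads in DR+/+ and 14 and 13 in DR-/- (0.89 on the log2 scale after division by the library means), whose member lay 6560 bp away with 17 and 11 reads. It was followed by chr15:44619436-44619713 (28 and 21 against 10 and 13 reads, 0.89) and chr15:44307258-44307794 (24 and 26 against 12 and 12 reads, 0.86). The latter had its member of 21 and 15 reads at 80 bp. The lowest was chr4:84854464-84854762, with 14 and 19 reads in DR+/+ and 23 and 26 in DR-/- (-0.78), although it had 2 DR+/+-only regions within 2716 bp. At chr1:159016361-159016559 the partner had 11 and 12 against 18 and 16 reads (-0.76), and at chr8:87550617-87550838 17 and 12 against 21 and 21 reads (-0.75). These were picked as the extremes of the 531 partners, each value rests on some 10 to 33 reads, and no region was tested.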

How the data were processed

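ATAC-seq peaks of 4 libraries, 2 of DR+/+ and 2 of DR-/- cells, were grouped by title. Bowtie2 2.3.0, SAMtools 0.1.19, FastQC 0.10.1 and the mm9 build are named, without roles, per the submitters' processing notes. For the peak caller, the read shift and the handling of duplicates and reads with many matches, the method is "not given in the sources used here". The deposited lists, 1 per library, give a score (10 times the −log10 q-value), a fold enrichment (ratio) over local background, −log10 p-values and −log10 q-values, and a summit. Read depth is not stated. The summit pileup and background were recovered from the deposited fold and p-value, taking fold as (pileup + 1)/(background + 1) and p as a Poisson tail. This gave a whole-number pileup within 0.001 of the −log10 p-value for 100% of the peaks of each list. A region takes the values of its strongest peak in a list and the summed width of its peaks. Percentiles are ranks by q-value within a list.

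Regions named are the 12 members of highest mean percentile, the 4 closest and 4 farthest, the 4 just outside, the 3 widest, the 6 partners with most members, and the 3 partners with the highest and the 3 with the lowest difference between populations; not all of the 12 are printed. The members, lists and rules were chosen with earlier results of these data known. Libraries were compared with exact permutation tests, and intervals are 95% Wilson intervals that cover counting error only. The replicate numbers were used as a block only in an alternative. Python 3.11.15, pandas 2.3.3, NumPy 2.4.6, SciPy 1.17.1 and Matplotlib 3.10.9 were used. The interval, distance and pileup code was tested on simulated data. The gene and promoter tables supplied are of another build and were not joined, so no sequence is printed.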

Additional observations from a re-analysis of the deposited data

Results flagged for a closer look

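Partners of close and of far DR+/+-only regions had differences of opposite sign in pileup and width, though not in fold enrichment (-0.028 and -0.051). In summit pileup, the log2 ratio to other common regions was higher in both DR+/+ than in both DR-/- libraries for partners with a member under 500 bp (difference 0.0938), and lower in both for partners with members at 500 bp to 10 kb (-0.0303). In peak width the differences were 0.2217 and -0.0269, again with no overlap between the groups of libraries. The close partners were picked by nearby peaks in DR+/+ alone, so neither measure is independent of the rule. Within the far set the sign varied with the distance: it was positive in width at 5 to 10 kb (0.025) and in pileup at 1 to 2 kb (0.032). The difference between close and far partners was not tested.

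The comparisons leave out sequences other than chromosomes 1 to 19. There 37 of 304 DR+/+-only regions (12.2%) lay within 10 kb of a common region, and 2 of 23 DR-/--only regions. The counts thus differ mainly because far fewer DR-/--only regions were found there. The DR-/--only share was the lower there, unlike on chromosomes 1 to 19, but it rests on only 2 regions. Of the 37, 27 were on the X chromosome, where they made up 11.7% of the 231 DR+/+-only regions.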

How the results depend on the processing

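The number of members was 322 with a limit of 5 kb, 944 with 20 kb and 152 with lists of equal length. It was 982 to 2853 when a library was left out, which loosens the definition. It stayed within 1.5 times of 550 with stronger peaks alone, 50% coverage, merging over 500 bp and without the 5 members of high background. The share of DR+/+-only regions near a common region was 7.57% at 5 kb, 22.2% at 20 kb, 9.12% with equal lists, 8.19% with 50% coverage, 9.28% with merging and 15.5 to 17.2% with a library left out. The difference of all partners in pileup was positive in 13 of 15 alternatives, the exceptions being merging (-0.0268) and the fold enrichment (-0.044). The cause was not tested. The difference of close partners in pileup was positive in 10 of 11 alternatives and -0.0279 with the fold enrichment, and their width difference was positive in all 10 run for it. These alternatives were added after seeing the data. With libraries left out they ranged from 0.0749 to 0.1083 in pileup and from 0.1159 to 0.1841 in width. Merging over 500 bp leaves no close member, so it gave no value for them. With the replicate number as a block the difference of all partners was 0.0099 (exact sign-flip test, p = 0.5, the smallest for 2 pairs), so neither fit could make a call. Replicate deviations of the populations had a correlation of -0.019 over 11850 common regions. Read counts of single regions carry much counting error, so this cannot tell whether the numbers pair the libraries. A typical member rests on 15 or 16 reads, which limits every value of a single region.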

Other observations

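A few members sat on a very high background, over 20 reads in DR+/+ replicate 1. There were 5 of them. At chr9:3006307-3006486 the summit held 161 and 172 reads in DR+/+ replicates 1 and 2 over a background of 104.8 and 113.3, an enrichment of 1.53-fold and 1.51-fold. The members at chr11:3099457-3099722 (45 and 54 reads) and chr8:19975052-19975225 (53 and 49 reads) were enriched 2.04-fold and 2.36-fold, and 2.18-fold and 2.08-fold. The other 2 are the pair on chromosome 9 described above. This group was picked after its values were seen.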
